A study of Mus musculus with 48 samples.

Results

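The genes described are the 44 protein-coding genes of the GENCODE vM21 annotation whose symbol names a collagen alpha chain (Col, a type number, a, a chain number), out of 55450 genes in the count table, 21951 of them protein-coding. The rule uses symbols only and no measured value, and all 44 had enough counts to be tested. RNA was sequenced from whole B16-D5 melanomas, a mouse melanoma line injected under the flank skin of C57BL/6J mice or of mice lacking the inducible nitric oxide synthase gene (iNOS KO). The 48 tumors fall into 16 groups of 3, each tumor from its own mouse. In the time course of 10 groups, all in WT mice, tumors were taken before treatment (0 hours, untreated) or from untreated, IgG-treated and anti-PD-1-treated mice on the titles' day 0, day 1 and day 3. The time field reads 6 hours for 8 of the 9 tumors titled day 0, and the study describes tumors taken at that time after antibody, but no source used here ties the titles' day 0 to it. In the genotype experiment of 6 groups, each genotype (WT, iNOS KO) has an untreated, an IgG and an anti-PD-1 group, and a figure legend of the study dates such tumors to 7 days after antibody. Mice were 4 weeks old on arrival and were housed for 2 weeks, tumors grew for 8 days before treatment, and antibody was given at 250 µg on days 0 and 3. The KO is of the host: the injected tumor cells keep their own Nos2 gene.

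Collagen chains assemble as trimers into a helix, and each collagen type is a set of chains that can trimerise. Fibrillar chains (types I, II, III, V, XI, XXIV and XXVII) form the load-bearing fibers of skin, bone, cartilage and tumor stroma, and fibroblasts are their main source. Type IV chains form the sheet-like network of basement membranes under epithelium and around vessels. Type VI chains form beaded filaments around cells, fibril-associated (FACIT) chains sit on fibril surfaces, and transmembrane collagens such as type XVII anchor epithelial cells. In a transplanted melanoma most of these chains are made by the host's fibroblasts, vessel cells and surrounding skin, so their counts in whole-tumor RNA bear on the stroma that a tumor holds. In bulk tumor, fewer cells of a type and less RNA per cell cannot be told apart.

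Before the results, several facts of the libraries bear on them. Groups were taken from the sample titles, whose treatment matches the treatment field in 14 of 48 samples, and the genotype field reads WT for all 48 although 9 titles read KO. The time field also departs from the titles: it reads 6 hours for all 9 tumors titled day 1 and for 1 untreated tumor titled day 3, and 0 hours for 1 untreated tumor titled day 0, so the days below are those of the titles. In the genotype experiment it reads 0 hours for KO IgG replicates 1 and 2, against the 7 days of the figure legend. The gene targeted in the KO, Nos2, was at 1.15 to 5.92 CPM (counts scaled to a common library size, median 4.21) in the 9 tumors labelled KO and at 1.40 to 7.28 CPM (median 3.28) in the 9 labelled WT, so it does not separate the labels, and "iNOS KO" below means "labelled iNOS KO". Library totals were 25574203 to 47687872 counts in the time course and 11625862 to 40959309 in the genotype experiment. The lowest total of the genotype experiment was that of WT anti-PD-1 replicate 3. Melanocyte-lineage markers (7 genes) summed to 9306 to 20436 CPM over the libraries. In the time course, 3 libraries had the highest summed levels of keratinocyte (8 genes) and of skeletal muscle (8 genes) markers. Their keratinocyte and muscle sums were 408 and 3461 CPM in 0-hour replicate 2, 6745 and 6309 CPM in 0-hour replicate 3, and 973 and 7326 CPM in IgG day 1 replicate 6. The next highest were 343 CPM for keratinocyte markers (IgG day 0 replicate 1) and 1082 CPM for muscle markers (anti-PD-1 day 1 replicate 4), so the keratinocyte sum of 0-hour replicate 2 was close to that of a library outside these 3. Among all 30 libraries the sums ran from 1.31 CPM (keratinocyte) and 3.49 CPM (muscle), and Krt5, a defining keratinocyte marker, was at 0 in 8 of the 30 and in 6 of the 18 genotype libraries. In the genotype experiment, 3 libraries held many counts on odorant, vomeronasal and taste receptor genes, which are chiefly genes of sensory neurons: 4089 CPM in WT anti-PD-1 replicate 3, 1448 CPM in WT anti-PD-1 replicate 4 and 1013 CPM in KO untreated replicate 1, against 13.9 to 256 CPM in the other 15. Several group comparisons that rest on these libraries are given with and without them. The correlations below include all libraries of an experiment. Without these libraries, only the number of chain pairs passing is given, at the end.

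The collagen transcriptome of the tumors was led by a few stromal chains. Levels between genes are compared here as normalised CPM per kilobase of exon. Col1a1 (ENSMUSG00000001506.10, GRCm38 chr11:94936224-94953042), the main chain of type I collagen, averaged 308 ± 185 (SD, n = 30) in the time course and 196 ± 140 (n = 18) in the genotype experiment. Col3a1 (ENSMUSG00000026043.18, chr1:45311538-45349706), the type III chain of young and healing stroma, averaged 113 ± 69.0 and 77.2 ± 62.9. Both varied widely between tumors. The vessel basement membrane chain Col4a1 (ENSMUSG00000031502.11, chr8:11198423-11312826) averaged 81.3 ± 20.8 and 72.4 ± 23.4, and its partner Col4a2 (ENSMUSG00000031503.13, chr8:11312805-11449287) averaged 50.4 ± 16.4 and 44.02 ± 15.2. Col6a1 (ENSMUSG00000001119.7, chr10:76708792-76726168) averaged 70.5 ± 29.6 and 51.5 ± 35.8, and Col6a3 (ENSMUSG00000048126.16, chr1:90765923-90843971) averaged 48.002 ± 19.3 and 34.3 ± 20.6. Col4a1 and Col6a1, next in order in the time course, differed by less than 1 SD. Col2a1 (ENSMUSG00000022483.17, chr15:97975602-98004695), the cartilage fibril chain, was at 40.3 ± 12.04 and 41.2 ± 15.5, within 1 SD of Col6a3 and of Col1a2 (42.5 ± 25.2 and 27.6 ± 18.5). At the other end, Col25a1 (0.0464), Col4a6 (0.0510) and Col10a1 (0.0602) were lowest in the time course. The rank of Col1a2, the other type I chain, depends on the length used, since its exon union of 12426 bases is longer than its longest transcript of 5348 bases. Per kilobase of the longest transcript, Col1a2 (98.9) stood next after Col1a1 (341) and Col3a1 (200) in the time course, while in the genotype experiment it was at 64.1, below Col4a1 (81.7) and Col2a1 (74.5).

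**Figure D1:**
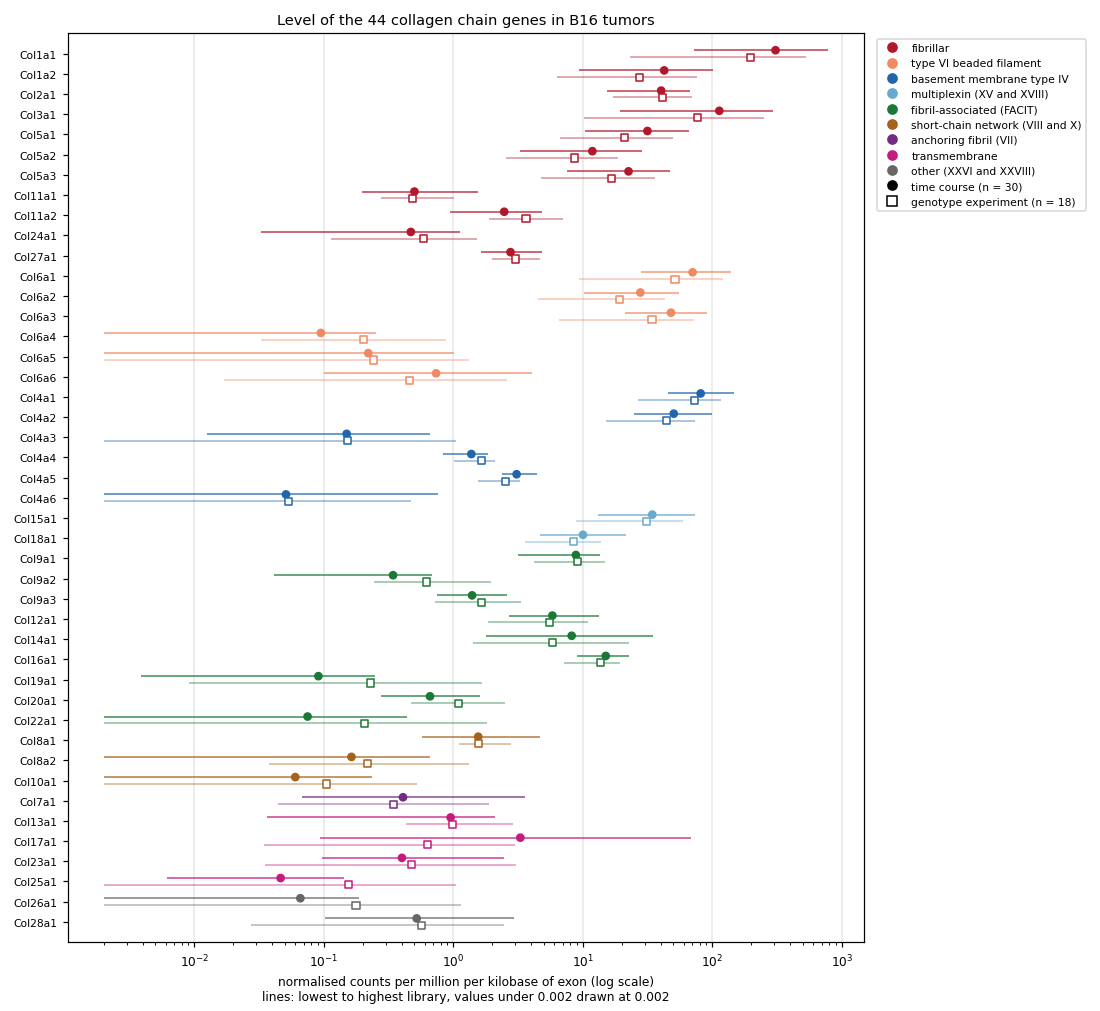
Level of each of the 44 collagen chain genes in normalised CPM per kilobase of exon (log scale), with the mean as a filled circle for the 30 time-course tumors and an open square for the 18 genotype tumors, and a line from the lowest to the highest tumor. Col1a1 and Col3a1 are highest, and the line of Col17a1 in the time course is the longest upwards, reaching levels near those of Col4a2.

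All 44 chains together took 0.311 to 1.44% of the normalised library (median 0.664%) in the time course and 0.163 to 1.19% (median 0.528%) in the genotype experiment. Col1a1, Col1a2 and Col3a1 made up 25.1 to 61.9% of these collagen counts in the time course and 20.2 to 57.6% in the genotype experiment. The spread between tumors was very uneven over the chains. Over the 30 time-course libraries the highest value of Col17a1 was 724 times the lowest, against 10.7 times for Col1a1. The least variable chains were Col4a5 (1.86 times), Col4a4 (2.23 times) and the fibril-associated Col16a1 (2.51 times).

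Several pairs of chains that build the same trimer varied together from tumor to tumor, and others did not. After subtracting each group's mean from log2(CPM + 0.5), Col1a1 and Col1a2, the chains of the type I heterotrimer, correlated with r = 0.99 and rho = 0.97 across the 30 time-course tumors, and with r = 0.99 and rho = 0.97 across the 18 genotype tumors. Of 30 relations tested (15 pairs of chains in each experiment, permutation tests, two-sided, Benjamini-Hochberg adjustment), 8 pairs in each experiment passed an adjusted p of 0.05. The type I pair and 5 more passed in both. Col4a1 and Col4a2, the type IV chains of nearly all basement membranes, gave r = 0.97 (rho 0.94) and r = 0.99 (rho 0.96). Type VI chains gave r = 0.97 (rho 0.97) and r = 0.99 (rho 0.97) for Col6a1 with Col6a2, and r = 0.98 (rho 0.98) and r = 0.99 (rho 0.94) for Col6a1 with Col6a3. Col5a1 with Col5a2, the type V chains that start fibrils, gave r = 0.96 (rho 0.95) and r = 0.95 (rho 0.94). Col1a1 with Col3a1, chains of different types, gave r = 0.97 (rho 0.96) and r = 0.98 (rho 0.97). The adjusted p of these 6 pairs lay between 6e-05 and 0.000623, r stayed at 0.93 or higher without the 2 tumors farthest from the median of the x axis, and the smallest raw p that 100000 permutations can give is 1e-05.

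Stromal and basement membrane chains were coupled in the genotype experiment, and a coupling was not detected in the time course. Col1a1 with Col4a1 gave r = 0.26 (rho 0.19, adjusted p = 0.383 and 0.553, permutation test) in the time course and r = 0.91 (rho 0.86, adjusted p = 0.00012 and 0.000218) in the genotype experiment, where it was 0.82 without the 2 farthest tumors. The difference between the experiments was not tested. Chains that share a trimer were not all coupled. Across the time course, Col4a3 with Col4a4 gave r = 0.25 (adjusted p = 0.354, permutation test), Col4a5 with Col4a6 gave r = 0.08 (adjusted p = 0.815), Col8a1 with Col8a2 gave −0.05 (adjusted p = 0.815) and Col9a1 with Col9a2 gave 0.13 (adjusted p = 0.76). In the genotype experiment the same pairs gave r from −0.48 to −0.07, with adjusted p of 0.123 or higher in permutation tests. In each of these pairs 1 chain (Col4a3, Col4a6, Col8a2 or Col9a2) had few counts. Col9a2 with Col9a3 gave r = −0.04 (adjusted p = 0.869, permutation test) in the time course and 0.64 (adjusted p = 0.0701) in the genotype experiment. Col11a1 with Col11a2 passed in the time course alone (r = 0.53, rho 0.60, adjusted p = 0.0228, permutation test; 0.49, rho 0.46, adjusted p = 0.123 in the genotype experiment). The epithelial chains Col7a1 of anchoring fibrils and Col17a1 of hemidesmosomes, gave r = 0.71 (adjusted p = 0.0289, permutation test) but rho 0.37 (adjusted p = 0.152) in the time course, and r was 0.41 without the 2 farthest tumors, so that relation rests on those tumors. The same holds for Col1a1 with Col17a1 in the genotype experiment (r = −0.64, adjusted p = 0.0468, rho −0.53, adjusted p = 0.123, permutation test), where r was −0.39 without the 2 farthest tumors.

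The chains also followed the marker genes of the cells known to make them (14 further relations, added after the data were seen, each tested by permutation and adjusted over the 14). Col1a1 and the summed fibroblast markers gave r = 0.91 (rho 0.90, adjusted p = 7e-05, permutation test) in the time course and r = 0.92 (rho 0.93, adjusted p = 0.000476) in the genotype experiment. Col4a1 and endothelial markers gave r = 0.73 (rho 0.73, adjusted p = 0.000187) and r = 0.93 (rho 0.87, adjusted p = 0.0009) by permutation, and Col4a1 and mural cell markers gave r = 0.86 (rho 0.84) and r = 0.91 (rho 0.91). Without the 2 farthest tumors these were 0.62 to 0.90. Col17a1 and keratinocyte markers gave r = 0.94 (rho 0.85, adjusted p = 0.000385, permutation test) and r = 0.73 (rho 0.70, adjusted p = 0.0183). The chains of cartilage and muscle-tendon junctions were less closely tied to their textbook tissues. Col2a1 gave r = 0.52 with cartilage markers in the time course (adjusted p = 0.119, permutation test; r = 0.70, adjusted p = 0.00586 in the genotype experiment). Col22a1, a chain of muscle-tendon junctions, gave −0.22 and −0.02 with muscle markers (adjusted p = 0.423 and 0.95). Col2a1 gave r = 0.36 and 0.35 with the melanocyte-lineage sum (adjusted p = 0.259 and 0.308, permutation test). All points of one experiment share its libraries, depths and normalisation.

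**Figure D2:**
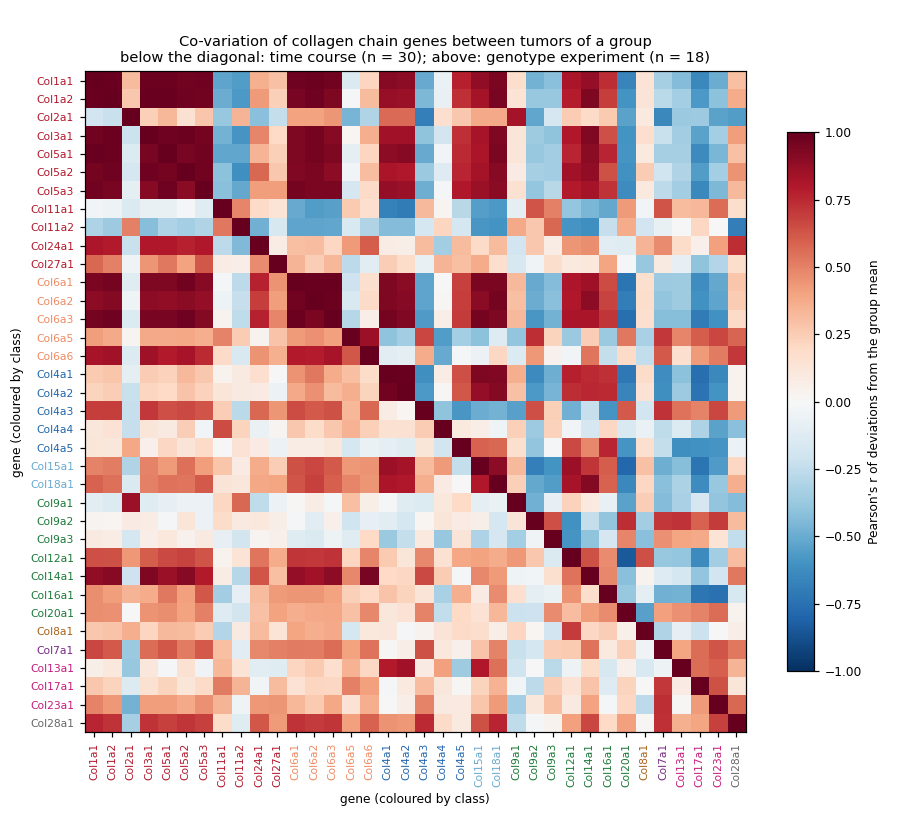
Pearson's r of log2(CPM + 0.5) deviations from the group mean for each pair of 36 collagen chain genes whose mean is at least 1 CPM in both experiments, below the diagonal over the 30 time-course tumors and above it over the 18 genotype tumors. Types I, III and V and the type VI chains Col6a1, Col6a2 and Col6a3 form 1 block of r near 1. Col4a1 and Col4a2 join it above the diagonal but not below it, and Col2a1 is close to Col9a1 alone.

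Over all 946 pairs of the 44 chains, r had a median of 0.23 in the time course and 0.08 in the genotype experiment, given as a description with no test. The chains nearest to Col1a1 in the time course were Col1a2 (0.99), Col5a1 (0.99), Col3a1 (0.97), Col5a3 (0.96) and Col6a3 (0.96). Nearest to Col4a1 were Col4a2 (0.97), Col15a1 (0.86) and Col18a1 (0.82), the last 2 being the multiplexins of vessel basement membranes, and Col13a1 (0.79). Col2a1 had 1 close companion, Col9a1 (0.86 in the time course, 0.83 in the genotype experiment), its partner in cartilage fibrils; the next chains were at 0.50 and 0.57. The fibrillar block therefore holds types I, III and V but not type II. Per kilobase of exon, the ratio of Col1a1 to Col1a2 was 5.96 to 8.17 (median 7.29) in the time course and 3.66 to 8.38 (median 6.79) in the genotype experiment. That of Col4a1 to Col4a2 was 1.31 to 2.06 and 1.51 to 1.87. The first ratio depends on the length used: per kilobase of the longest transcript it was 2.84 to 3.89 (median 3.47) and 1.74 to 3.99 (median 3.23).

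The tightest pair by position is also one of the tightest in level: Col4a1 and Col4a2 lie head to head on chr8, and their annotated first exons overlap by 22 bases (chr8:11312805-11312826). Col4a4 and Col4a3 are likewise head to head with 71 bases between them (chr1:82586850-82586920), and so are Col4a6 and Col4a5, 1308 bases apart. These pairs gave r = 0.25 and 0.08 in the time course and −0.40 and −0.46 in the genotype experiment. None of these passed (adjusted p of 0.218 or higher, permutation tests). Col3a1 and Col5a2 lie tail to tail 24614 bases apart. To set start-site sequence beside the co-variation, the windows of 2 closely coupled fibrillar chains, Col3a1 and Col5a1 (r = 0.95 in the time course and 0.97 in the genotype experiment), are shown beside that of Col9a1, which did not vary with Col3a1 (−0.12 and 0.12), and the 2 head-to-head intervals. The 250 bases before each gene start, the overlap and the spacer were read from RefSeq windows on GRCm38.p6. They are written 5′ to 3′, with capitals marking a match to the TATA motif TATAAA, the CAAT motif CCAAT or the GC motif GGGCGG on either strand.
Col3a1, chr1:45311288-45311537, plus strand: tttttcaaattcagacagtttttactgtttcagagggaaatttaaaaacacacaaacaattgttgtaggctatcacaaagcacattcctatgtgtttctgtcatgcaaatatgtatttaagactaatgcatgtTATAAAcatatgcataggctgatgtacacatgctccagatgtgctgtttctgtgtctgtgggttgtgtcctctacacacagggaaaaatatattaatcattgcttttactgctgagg
Col5a1, chr2:27886175-27886424, plus strand: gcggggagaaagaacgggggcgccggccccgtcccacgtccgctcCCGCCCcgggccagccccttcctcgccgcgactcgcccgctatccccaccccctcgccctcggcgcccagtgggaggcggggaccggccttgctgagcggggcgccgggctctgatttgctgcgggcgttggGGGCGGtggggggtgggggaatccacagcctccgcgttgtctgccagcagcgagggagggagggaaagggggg
Col9a1, chr1:24177360-24177609, plus strand: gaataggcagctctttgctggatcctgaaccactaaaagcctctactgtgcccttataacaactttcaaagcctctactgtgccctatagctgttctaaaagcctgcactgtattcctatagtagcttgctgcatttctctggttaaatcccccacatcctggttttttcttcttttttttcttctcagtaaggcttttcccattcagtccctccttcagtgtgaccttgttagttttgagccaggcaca
Col4a1 and Col4a2 overlap, chr8:11312805-11312826, plus strand: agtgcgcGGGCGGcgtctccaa
Col4a4 to Col4a3 spacer, chr1:82586850-82586920, minus strand: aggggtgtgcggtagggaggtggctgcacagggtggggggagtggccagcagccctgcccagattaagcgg

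The window of Col3a1 was 35.2% G and C with 1 TATAAA, and that of Col5a1 was 76.4% with GGGCGG 2 times, 1 of them as its reverse complement CCGCCC. These chains thus varied together with windows at opposite ends of the members' base composition, 35.2 to 76.4%. The window of Col9a1 (43.6%) held none of the 3 motifs, and the Col4a1 and Col4a2 overlap held 1 GGGCGG. Of 35 members with a RefSeq window, 21 held GGGCGG, 13 (37.1%) held CCAAT and 5 (14.3%) held TATAAA, against 32.7, 33.8 and 12.4% of all 32851 windows. The median G and C content was 59.0% over 38 windows of members and 52.4% over all. A match is a run of letters, and no binding was measured.

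Between the titles' day 0 and day 1, most fibrillar and type VI chains leaned higher, without passing the adjusted test. Col1a1 was at 718, 1352 and 2033 CPM (lowest, median and highest of 9 tumors) on day 0 and at 1281, 2282 and 4379 CPM on day 1. Col3a1 went from 361, 772 and 1485 to 615, 1075 and 2913 CPM. Col5a1, the chain that sets fibril nucleation with Col5a2, was at 117, 189 and 269 CPM on day 0 and at 189, 305 and 560 CPM on day 1. Type VI followed at lower fold: Col6a3 was at 290, 462 and 662 CPM and then at 364, 603 and 1099 CPM. The day ranges overlapped for each of these chains, and the highest day 0 values of Col1a1 and Col5a1 lay under their day 1 medians. The median of Col2a1 was lower on day 1 (257, 397 and 529 to 246, 291 and 498 CPM).

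In the test of day 1 against day 0, averaged over the 3 arms, edgeR's quasi-likelihood test with adjustment over all genes called 0 of 44 members at an adjusted p of 0.05, as it called 0.0% of all genes tested. At an unadjusted p under 0.05, 16 members were higher and 2 lower, against 9.39 and 7.55% of all genes, and DESeq2 called 3 members (Col8a1, Col5a1 and Col5a3). With no filter on low counts edgeR called 13 members, all higher, of 769 genes called in all. Without IgG day 1 replicate 2 the count was 11 higher and 0 lower. The log2 difference was 0.86 ± 0.27 (SE) for Col5a1, 0.89 ± 0.28 for Col5a3 and 0.92 ± 0.31 for Col5a2, with adjusted p of 0.182, 0.182 and 0.184. It was 0.97 ± 0.33 for Col1a1 (adjusted p = 0.185), 0.95 ± 0.36 for Col3a1 (0.204), 0.56 ± 0.25 for Col6a1 (0.248) and 0.54 ± 0.24 for Col6a3 (0.249). Basement membrane chains differed less: Col4a1 gave 0.32 ± 0.17 (adjusted p = 0.344), with 341 to 1089 CPM on day 1 against 388 to 662 CPM on day 0. Col2a1 gave −0.23 ± 0.22 (adjusted p = 0.626). Over all alternatives Col1a1 kept a difference of 0.79 to 1.13 and Col5a1 one of 0.74 to 1.003.

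By class, the median log2 difference was 0.86 over 11 fibrillar chains (6 higher and 1 lower at an unadjusted p under 0.05), 0.57 over 6 type VI chains (4 higher), 0.51 over the 2 multiplexins (both higher), 0.26 over 6 type IV chains (1 higher), 0.25 over 9 FACIT chains (2 higher, 1 lower) and 0.07 over 4 transmembrane chains (none at p under 0.05). The median over all 44 was 0.34 and over all genes 0.05. Genes that act on collagen outside the cell leaned the same way. Fibril partners such as small leucine-rich proteoglycans and fibronectin had a median of 0.81 (7 of 9 higher), and propeptide removal and cross-linking enzymes had 0.61 (8 of 13 higher). Breakdown and uptake genes had 0.35 (4 of 10 tested higher) and collagen receptors 0.28 (3 of 9 higher). Chain modification and folding in the endoplasmic reticulum, which serves every collagen, had 0.11 (3 of 19 higher, 1 lower), and TGF-beta ligands, receptors and SMADs had 0.03 (3 of 11 higher, 2 lower). No gene of these lists passed the adjusted test.

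Fibroblast, adipocyte and leukocyte markers leaned the same way as these chains between the days. The endothelial, mural cell, keratinocyte, skeletal muscle and cartilage lists are not given for this comparison. The fibroblast list had a median difference of 0.99 (7 of 8 genes higher at an unadjusted p under 0.05), and its summed level ran from 117 to 304 CPM on day 0 and from 155 to 1031 CPM on day 1. The adipocyte list had a median of 1.74 (4 of 5 higher, sums of 10.7 to 55.7 CPM against 14.8 to 309 CPM), and the leukocyte list 0.74 (4 of 6 higher, 78.5 to 270 CPM against 132 to 555 CPM). Melanocyte-lineage markers had a median of −0.33 (4 of 7 lower, 12542 to 17745 CPM against 10208 to 15732 CPM). Their part in the collagen differences was not tested. On day 3 Col1a1 lay at 475, 1430 and 4061 CPM, and day 3 was not tested against day 1. Against day 0, edgeR called 0 members on day 3 (0.0% of all genes), 1 was lower at an unadjusted p under 0.05 (2.71% of all genes lower, 4.93% in either direction) and DESeq2 called 0. That member was Col17a1, at −2.29 ± 0.74 (adjusted p = 1).

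**Figure D3:**
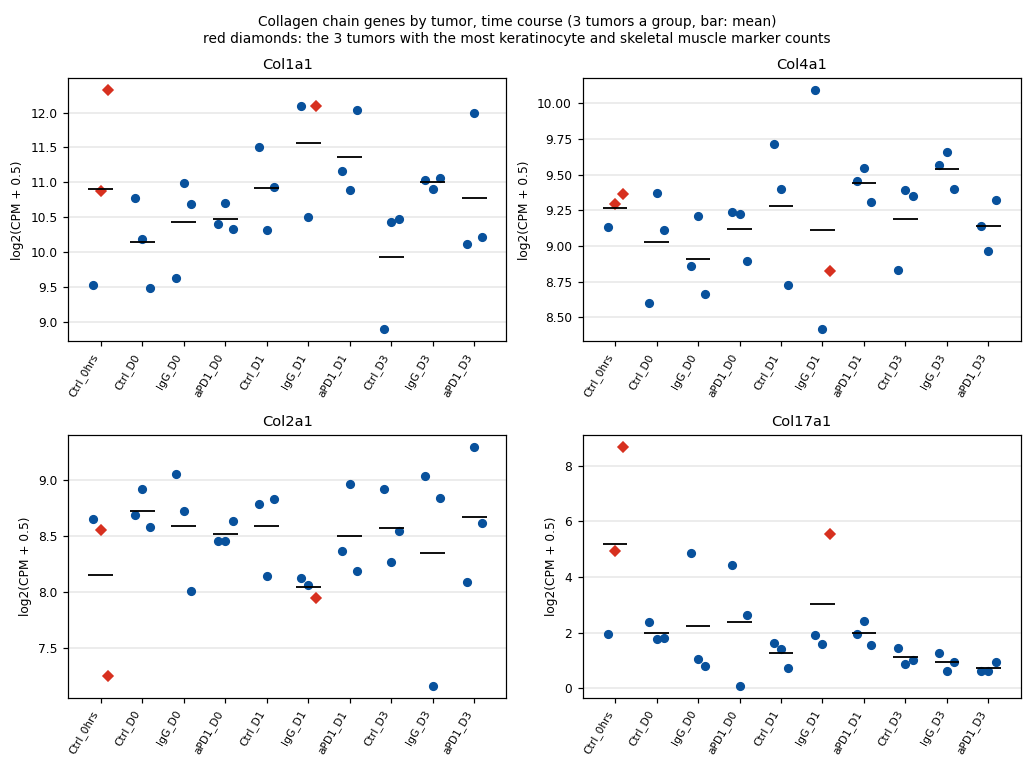
Level of Col1a1, Col4a1, Col2a1 and Col17a1 as log2(CPM + 0.5) in each of the 30 time-course tumors, 3 a group, with a bar at the group mean and red diamonds for the 3 tumors with the most keratinocyte and skeletal muscle marker counts. Col1a1 is higher in the day 1 groups than in the day 0 groups with overlap, and the highest Col17a1 values are red diamonds.

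Among untreated time-course tumors, the epithelial chains Col17a1 and Col7a1 were highest in the 2 skin- and muscle-rich 0-hour libraries. Col17a1 (ENSMUSG00000025064.15, chr19:47646344-47692094) was at 3.37, 29.8 and 409 CPM at 0 hours, at 4.74, 2.90 and 3.03 CPM in untreated day 0 tumors and at 2.25, 1.35 and 1.52 CPM in untreated day 3 tumors. The 409 CPM belong to the library with 6745 CPM of keratinocyte markers, and the 29.8 CPM to that with 408 CPM. Col7a1 was at 1.65, 6.48 and 36.7 CPM at 0 hours and at 1.73, 2.36 and 0.703 CPM on day 0. Col23a1, another transmembrane chain, was at 0.826, 2.92 and 14.2 CPM, and Col28a1 at 0.619, 2.77 and 14.4 CPM, in the same order of libraries. In each of these 4 chains the lowest 0-hour tumor lay within the range of the later untreated tumors, and the same library was highest. Outside 0 hours, the highest Col17a1 value was 46.5 CPM in IgG day 1 replicate 6, the third library rich in these markers.

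Untreated day 0 against 0 hours, edgeR called 0 members (0.0% of all genes), 9 were lower at an unadjusted p under 0.05 (5.81% of all genes lower), DESeq2 called 3 and edgeR called 4 with no filter on low counts. The log2 difference was −5.37 ± 1.42 for Col17a1, −3.22 ± 0.73 for Col7a1 (both at adjusted p = 0.377) and −2.67 ± 0.78 for Col28a1 (0.390). Untreated day 3 against 0 hours, edgeR called 0 (0.0% of all genes), 11 were lower and 1 higher at p under 0.05 (4.69 and 2.2% of all genes, 6.89% in all), DESeq2 called 3 and edgeR called 3 with no filter. Col17a1 gave −6.43 ± 1.497, Col7a1 −2.87 ± 0.71 and Col23a1 −2.42 ± 0.66, each with an adjusted p of 0.368. Keratinocyte markers had median differences of −6.76 and −9.51 (8 of 8 lower at p under 0.05 in both), and fibroblast markers had −0.58 on day 0 (0 of 8). Without the 3 libraries rich in skin and muscle markers, 0 members reached p under 0.05 in either comparison, with 1 0-hour tumor left, and Col17a1 on day 0, Col28a1 on day 0, Col7a1 on day 3 and Col23a1 on day 3 turned to 0.10, 0.57, 0.30 and 0.44. Leaving out 1 library also moved the counts at p under 0.05. Without 0-hour replicate 1 they were 19 and 20 (10.4 and 9.445% of all genes). Without 0-hour replicate 3 they were 1 and 2 (1.48 and 2.08%). Without untreated day 3 replicate 1 the day 3 count was 7 (5.455%). With 0-hour replicate 1 left out, the adjusted test called 4 and 3 members in these comparisons, among 130 and 60 genes.

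Anti-PD-1 against IgG asks what the checkpoint antibody adds over a control antibody, and no collagen gene passed the adjusted test. Averaged over the 3 days, edgeR called 0 members (0.0% of all genes), 1 was lower at an unadjusted p under 0.05 (5.84% of all genes in either direction), and DESeq2 called 0. Col1a1 differed by −0.10 ± 0.33, fibrillar chains had a median of −0.10 with 0 of 11 at p under 0.05, and all members had a median of −0.10 against −0.04 over all genes. That lower chain was Col22a1 (−1.95 ± 0.81, adjusted p = 0.818), which was at most 4.04 CPM in any time-course tumor. Col8a1 gave 0.53 ± 0.27 and Col10a1 2.10 ± 1.16. By day, 0, 1 and 2 members were at p under 0.05 (4.38, 3.64 and 2.14% of all genes) and none at an adjusted p under 0.05 in edgeR or DESeq2. On day 1 it was Col10a1, the hypertrophic cartilage chain, at 0 in all 3 IgG tumors and at 0.585, 0.737 and 0.275 CPM with anti-PD-1, at least 7.04-fold higher when the IgG level is set to 3 counts per library. On day 3 they were Col13a1, a transmembrane chain at 4.97, 7.22 and 6.17 CPM with IgG and 3.15, 0.168 and 2.56 CPM with anti-PD-1 (−1.64 ± 0.70), and Col23a1 (2.29, 4.14 and 2.28 against 0.621, 1.23 and 1.24 CPM, −1.49 ± 0.64), both with an adjusted p of 1. On day 3, 7 members did not overlap between the arms, all lower with anti-PD-1 (Col4a1, Col4a2, Col13a1, Col15a1, Col18a1, Col23a1 and Col25a1), against 4.83% of all genes lower without overlap.

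IgG itself was compared with no treatment on each day. edgeR called 0 members on days 0, 1 and 3 (0.0% of all genes each), 0, 2 and 2 were at an unadjusted p under 0.05 (5.42, 5.43 and 2.64% of all genes, of which 3.53, 4.01 and 1.36% higher and 1.89, 1.42 and 1.28% lower), and DESeq2 called 0 on each. On day 1 the pair at p under 0.05 was Col17a1 (3.14 ± 1.299, adjusted p = 0.859), at 2.61, 2.16 and 1.15 CPM untreated and 3.24, 2.52 and 46.5 CPM with IgG, and Col10a1, which was at 0 in all 3 IgG tumors and at 0, 0.683 and 0 CPM untreated. On days 0 and 1, 4 and 1 members were higher with IgG without overlap and 1 on each day lower (5.87 and 6.26% of all genes higher, 2.31 and 6.36% lower). On day 3, 14 members were higher with IgG without overlap and 1 lower (6.53 and 4.67% of all genes), the higher ones including Col1a1, Col3a1, Col5a1 to Col5a3 and Col6a1 to Col6a3. Col1a1 was at 475, 1379 and 1430 CPM untreated and at 2097, 1911 and 2139 CPM with IgG, and the median over the members was 0.30. Col12a1, a FACIT chain of tendon and stroma, gave 0.93 ± 0.40 at 48.7, 47.2 and 56.2 against 124, 49.3 and 116 CPM, and Col23a1 gave 1.37 ± 0.64, with an adjusted p of 1 for each. The untreated tumors of day 3 also enter the comparison with 0 hours, and the IgG tumors enter that with anti-PD-1. Across all 10 groups, the test for any difference called 0 members, 3 were at p under 0.05 (5.7% of all genes) and DESeq2 called 3. The lowest adjusted p was that of Col17a1 (0.0626), followed by Col7a1 (0.182) and Col23a1 (0.543). That test called 3 members without 0-hour replicate 1 (239 genes in all) and 14 with no filter on low counts.

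In the genotype experiment, the untreated iNOS KO tumors held less stromal collagen RNA than untreated WT and IgG-treated KO tumors, without passing the adjusted test. Col1a1 was at 283, 372 and 413 CPM in them, at 483, 2154 and 1221 CPM in untreated WT tumors and at 1099, 1804 and 1810 CPM in IgG-treated KO tumors. Collagen took 0.198, 0.242 and 0.257% of the normalised counts in untreated KO tumors, 0.346, 0.753 and 0.494% in untreated WT and 0.504, 0.714 and 0.662% in IgG-treated KO. The untreated KO tumors thus lay under both groups in every replicate. Col2a1 showed the same order: 157, 238 and 202 CPM in untreated KO, 650, 316 and 367 CPM in untreated WT and 579, 390 and 350 CPM in IgG-treated KO. Col9a1 was at 21.4, 30.6 and 21.7 CPM, 68.7, 46.3 and 34.1 CPM, and 68.9, 38.8 and 43.4 CPM in these groups. Col4a1 was at 296, 396 and 386 CPM in untreated KO against 503, 622 and 514 CPM in untreated WT, and Col6a1 at 62.4, 69.0 and 84.3 against 120, 350 and 156 CPM.

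For untreated KO against untreated WT, edgeR called 0 members at an adjusted p of 0.05, as against 0.587% of all genes (181), DESeq2 called 2, and with no filter on low counts edgeR called 16 (14 lower) of 1349 genes. At an unadjusted p under 0.05, 13 members were lower and 2 higher in KO, against 3.37 and 13.1% of all genes. The 2 higher were among the 9 members with a median under 1 CPM in this experiment, and the 13 lower among the other 35. No other genes of like level were set beside either set. Without overlap 15 members were lower and 3 higher (8.0 and 9.73% of all genes). Col2a1 gave −1.16 ± 0.34 (adjusted p = 0.170), Col9a1 −1.02 ± 0.34 (0.246) and Col1a1 −1.85 ± 0.71 (0.295). Fibrillar chains had a median of −1.19 (7 of 11 lower at p under 0.05), type VI chains −0.37 (3 of 6 lower), fibril partners −1.26 (4 of 9 lower), cross-linking genes −0.53 (3 of 13 lower) and folding genes −0.32 (3 of 19 lower), while all members had −0.17 and all genes 0.49. Fibroblast markers had a median of −0.91 (1 of 8 lower), with sums of 74.7, 62.6 and 91.0 CPM in untreated KO and 87.5, 232 and 120 CPM in untreated WT, and adipocyte markers had 2.54 (4 of 5 higher); their part in the collagen difference was not tested. The count of 15 at p under 0.05 was 7 without WT untreated replicate 2, and 15 (all lower, median −0.61) without the 3 receptor-rich libraries. With the receptor counts as a covariate it was 2. The adjusted test called 2 without WT anti-PD-1 replicate 2 (340 genes in all) and 1 without KO untreated replicate 2 or 4 (248 and 339).

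For IgG against no treatment in KO mice, edgeR called 0 members (0.188% of all genes, 58), and DESeq2 called 2. With no filter on low counts edgeR called 17 (15 higher) of 1363 genes, and with only the compared groups in the fit it called 14. At an unadjusted p under 0.05, 17 were higher and 3 lower with IgG, against 2.95 and 12.7% of all genes, and the same numbers, 17 and 3, did not overlap (8.02 and 9.53% of all genes). At p under 0.05, the 9 members with a median under 1 CPM held 0 higher and 2 lower. The other 35 held 17 higher and 1 lower, and no other genes of like level were compared. Col2a1 gave 1.14 ± 0.34 (adjusted p = 0.215), Col9a1 1.04 ± 0.34 (0.266), Col1a1 2.14 ± 0.72 (0.270), Col6a1 1.71 ± 0.60 (0.289), Col3a1 2.17 ± 0.79 (0.309) and Col4a1 0.73 ± 0.35 (0.314). Fibrillar chains had a median of 1.38 (7 of 11 higher), type VI 1.07 (3 of 6), type IV 0.26 (2 of 6) and FACIT 0.30 (3 of 9 higher, 2 lower), against −0.45 over all genes. Outside the chains, fibril partners had 1.65 (7 of 9 higher), cross-linking genes 0.49 (5 of 13), breakdown genes 0.49 (3 of 11) and folding genes 0.16 (2 of 19). Fibroblast markers had 1.76 (7 of 8 higher), with sums of 74.7, 62.6 and 91.0 CPM untreated and 197, 275 and 205 CPM with IgG, and mural markers had 0.59 (4 of 7 higher); their part was not tested. The count of 20 at p under 0.05 was 21 without the receptor-rich libraries and 4 with the receptor counts as a covariate, and over the alternatives Col1a1 was at 1.05 to 2.35 and Col4a1 at 0.06 to 0.84, both lowest with that covariate. Without WT anti-PD-1 replicate 2, which is in neither group but enters the shared spread, the adjusted test called 7 members, among 231 genes. The test called 1 member, among 123 to 296 genes, without any of 6 other libraries. These were KO untreated replicates 2 and 4, KO anti-PD-1 replicate 2, WT untreated replicates 1 and 2 and WT IgG replicate 3.

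The same untreated KO tumors enter both comparisons, so these are not independent. In WT mice, IgG against no treatment gave 0 adjusted calls in edgeR (0.0% of all genes) and in DESeq2, 10 in edgeR with no filter on low counts, and 7 members higher and 0 lower at p under 0.05 (5.54 and 2.29% of all genes, 7.83% in all). Col1a1 was at 483, 2154 and 1221 CPM untreated and at 1628, 2218 and 3445 CPM with IgG. Col6a5 (3.86 ± 1.33), Col6a6 (2.77 ± 1.06) and Col13a1 (0.98 ± 0.39) had the smallest p (adjusted p = 0.565 each), and Col6a5 was high in 1 tumor: 0.158, 0.570 and 0.173 CPM untreated against 0.452, 1.02 and 11.8 CPM. Fibrillar chains had a median of 0.90 (2 of 11 higher), fibroblast markers 1.22 (5 of 8 higher) and leukocyte markers 1.42 (4 of 6 higher), and all members had 0.48 against 0.14 over all genes. The count of 7 was 15 without WT untreated replicate 2 or without WT anti-PD-1 replicate 2, 14 without the receptor-rich libraries, 13 without WT IgG replicate 1, 4 without WT IgG replicate 2 or 3 and 3 without WT untreated replicate 3.

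**Figure D4:**
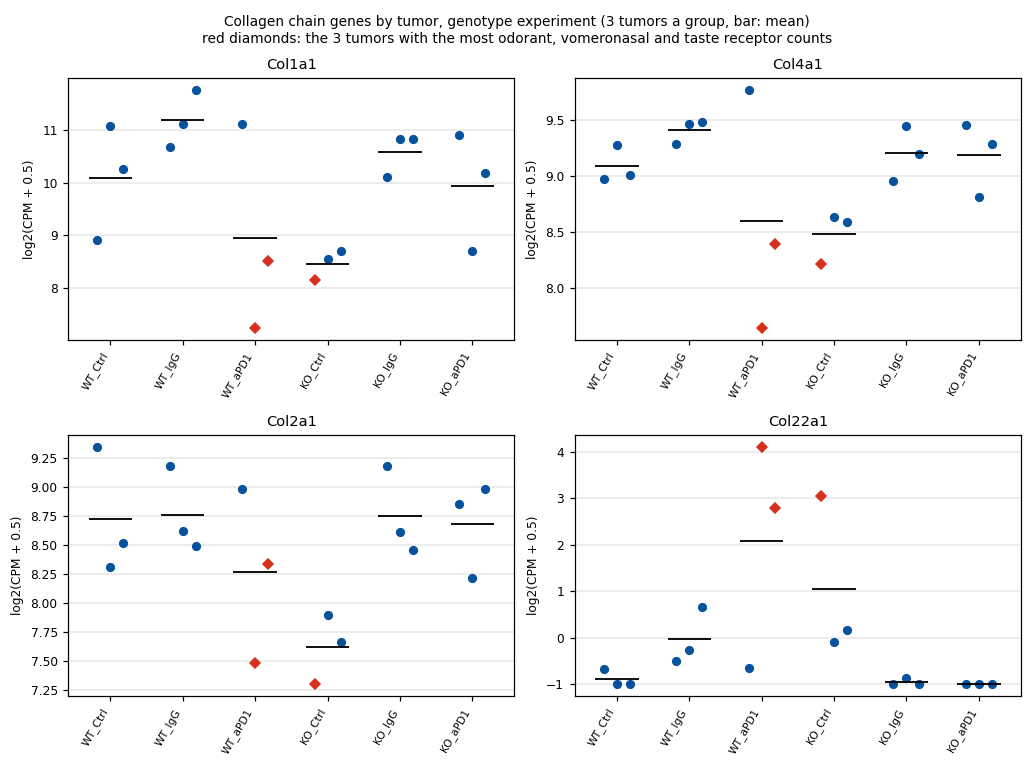
Level of Col1a1, Col4a1, Col2a1 and Col22a1 as log2(CPM + 0.5) in each of the 18 genotype tumors, 3 a group, with a bar at the group mean and red diamonds for the 3 tumors with the most receptor gene counts. Untreated KO tumors lie under all untreated WT and KO IgG tumors in Col1a1, Col4a1 and Col2a1, and the 3 highest Col22a1 values are the 3 red diamonds.

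Col22a1 (ENSMUSG00000079022.10, chr15:71795795-72034227) was the only member to pass an adjusted test in the 22 comparisons, that for any difference among the 6 genotype groups (adjusted p = 0.0136; 1 of 44 members, 1.66% of all genes). DESeq2 called 13, edgeR with no filter on low counts called 32, and 32 were at an unadjusted p under 0.05 (28.2% of all genes), or 19 without the receptor-rich libraries. Col13a1 (adjusted p = 0.0634) and Col19a1 (0.0767) came next. Col22a1 was at 0.142, 16.7 and 6.40 CPM in WT anti-PD-1 tumors, at 7.80, 0.440 and 0.616 CPM in untreated KO tumors, at 0.211, 0.330 and 1.07 CPM in WT IgG tumors, at 0.132, 0 and 0 CPM in untreated WT tumors, at 0, 0.0508 and 0 CPM in KO IgG tumors and at 0 in all 3 KO anti-PD-1 tumors. The 3 highest values are those of the 3 receptor-rich libraries. Without these libraries 1 member passed that test, Col6a1 in place of Col22a1. Leaving out single libraries gave 1 to 29 calls, the most without WT anti-PD-1 replicate 2 (6943 genes in all), and 17 without KO untreated replicate 1 (4574).

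Counts on weakly transcribed genes need care in these libraries. If the counts per kilobase on receptor genes are taken as a level shared by all genes, they account for 43.5, 42.8 and 33.04% of the counts on the 9 members with a median under 1 CPM (Col4a3, Col4a6, Col6a5, Col8a2, Col10a1, Col19a1, Col22a1, Col25a1 and Col26a1) in the receptor-rich libraries (WT anti-PD-1 replicate 3, WT anti-PD-1 replicate 4 and KO untreated replicate 1), against 5.17 to 30.4% in the other 15 libraries. For the other 35 members the shares were 9.23, 2.38 and 2.25% in these 3 libraries and at most 0.162% elsewhere.

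Under anti-PD-1, KO against WT gave 0 adjusted calls among members in edgeR (0.0% of all genes). At p under 0.05, 0 members were higher and 16 lower (5.69 and 26.6% of all genes, 32.3% in all). DESeq2 called 13 members and edgeR with no filter on low counts called 13, with no share over all genes given for either. All genes had a median of −0.91 and the members −0.19. The 9 low members had a median of −4.04 and the other 35 a median of 0.11. These medians are descriptions only: the 9 were picked for their level after the values were seen, and no other genes of like level were set beside them. Col22a1 gave −10.96 ± 2.22 (adjusted p = 0.121). Its WT mean of 7.76 CPM was 93.3-fold the KO level when that level is set to 3 counts per library (0.0831 CPM). The mean rests on the 2 receptor-rich WT libraries, and the remaining WT tumor lay near that floor. Col6a4, a type VI chain, was at 1.11, 7.54 and 4.73 CPM in WT and 0.522, 0.280 and 0.700 CPM in KO (−3.14 ± 0.82), and Col13a1 at 7.39, 13.2 and 6.50 against 3.13, 4.11 and 2.51 CPM (−1.47 ± 0.40, both at adjusted p = 0.123). Transmembrane chains had a median of −2.85 (4 of 4 lower), and keratinocyte markers had −3.67 (2 of 8 lower). Transmembrane sums were 11.6, 62.4 and 25.1 CPM in WT replicates 2, 3 and 4 and 5.37, 7.06 and 5.81 CPM in KO. The 2 higher WT values of this sum and of Col6a4 are those of the receptor-rich libraries. Over the alternatives Col6a4 was at −3.54 to −0.17 and Col13a1 at −1.62 to −0.89. Leaving out the 3 receptor-rich libraries leaves 1 WT anti-PD-1 tumor, replicate 2, which is then assumed to vary like the other groups. The low members then had a median of −0.63 and the other 35 one of −0.54 (28 of 35 below 0), and 9 members were at p under 0.05, all lower. With the receptor counts as a covariate the medians were 1.51 and −0.49, and 2 members were at p under 0.05. Without WT anti-PD-1 replicate 2 the other 35 had 0.58.

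The fibrillar chains spread widely within the WT anti-PD-1 group. Col1a1 was at 2207, 151 and 365 CPM in WT and 1915, 415 and 1164 CPM in KO tumors, and Col3a1 at 1419, 99.9 and 213 against 1313, 166 and 764 CPM. Col1a1 gave 0.36 ± 0.69 (adjusted p = 0.716), with −0.88 to 2.21 over the alternatives, so its direction depends on the libraries kept. It was −0.88 without the receptor-rich libraries, with replicate 2 the lone WT tumor, and 2.21 when WT anti-PD-1 replicate 2 was left out, the highest of the 3 in Col1a1. Fibroblast markers had a median of −0.14 (0 of 8), with sums of 323, 72.1 and 79.7 CPM in WT and 219, 55.7 and 172 CPM in KO. Without WT anti-PD-1 replicate 2 the adjusted test called 28 members, 14 in each direction, among 4959 of 38079 genes. It called 11 without KO untreated replicate 1 (1112 genes in all), 7 without KO untreated replicate 4 (740) and 6 without KO untreated replicate 2 (606). The 16 members at p under 0.05 were 34 without WT anti-PD-1 replicate 2 (53.0% of all genes) and 10 without WT anti-PD-1 replicate 3 (12.1%).

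Anti-PD-1 against IgG gave 0 adjusted calls in either genotype by edgeR (0.0% of all genes each) and by DESeq2, and 17 in WT by edgeR with no filter on low counts. In WT, 11 members were higher and 9 lower at p under 0.05 (10.6 and 5.75% of all genes). The higher ones were led by Col9a2 (1.81 ± 0.61), Col19a1 (3.30 ± 1.12) and Col4a6 (6.92 ± 2.56), each with an adjusted p of 0.305. Col19a1 was at 0.211, 0.924 and 0.555 CPM with IgG and at 0.199, 11.5 and 5.07 CPM with anti-PD-1, where the 2 high values are those of the receptor-rich libraries. Fibrillar chains had a median of −1.03 (1 of 11 higher, 3 lower) and fibroblast markers −1.08 (2 of 8 lower). Without the receptor-rich libraries, which leaves 1 WT anti-PD-1 tumor, the member count at p under 0.05 was 0 and Col19a1 gave −1.48. Of the WT anti-PD-1 tumors, leaving out replicate 2 gave 33 at p under 0.05 (33.3% of all genes) and 20 adjusted calls, among 2271 genes called. Leaving out replicate 3 gave 2 at p under 0.05 and leaving out replicate 4 gave 8 (4.28 and 6.76% of all genes). In KO, 0 members were higher and 2 lower at p under 0.05 (1.94% of all genes in either direction): Col4a4 (21.95, 18.3 and 22.2 CPM with IgG, 14.7, 16.7 and 13.7 CPM with anti-PD-1, −0.47 ± 0.19) and Col17a1 (−1.67 ± 0.78), both with an adjusted p of 1.

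The test of whether the antibody difference itself depends on genotype (KO minus WT) called 0 members in edgeR (0.0% of all genes) and in DESeq2, with 0 higher and 6 lower at p under 0.05 (0.973 and 6.44% of all genes). The smallest p belonged to Col17a1 (−3.58 ± 1.10), Col4a6 (−8.80 ± 3.23) and Col19a1 (−4.07 ± 1.53, adjusted p = 0.67 each), and Col19a1 gave 0.70 without the receptor-rich libraries. Fibrillar chains had a median of 0.91 with 0 higher and 1 lower, and all members 0.01 against −0.47 over all genes. The count of 6 was 30 without WT anti-PD-1 replicate 2, 12 and 10 without KO untreated replicates 1 and 4, 11 without WT IgG replicate 3, 2 without WT anti-PD-1 replicate 3 and 0 without the receptor-rich libraries, where again 1 WT anti-PD-1 tumor is left.

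Averaged over the 3 arms, KO against WT gave 0 adjusted calls among members (0.00973% of all genes, 3) in edgeR, 16 with no filter on low counts and 0 in DESeq2, and 9 members lower and 0 higher at p under 0.05 (7.3 and 5.07% of all genes). Col22a1 gave −3.23 ± 1.09 (adjusted p = 0.278), Col24a1, a minor fibrillar chain of bone, −1.002 ± 0.35, Col26a1 −1.86 ± 0.70 and Col1a1 −0.71 ± 0.40 (adjusted p = 0.492). Col1a1 was at −1.09 to −0.08 over the alternatives, −0.08 being its value without WT anti-PD-1 replicate 2. Fibrillar chains had a median of −0.54 (3 of 11 lower), type VI −0.85 (2 of 6 lower) and fibroblast markers −0.57 (2 of 8 lower), against −0.19 over all genes. Without the receptor-rich libraries 20 members were lower at p under 0.05, with a median of −0.50. Leaving out any of KO untreated replicate 1, KO anti-PD-1 replicate 1, WT untreated replicates 1 and 3, WT IgG replicate 1 and WT anti-PD-1 replicates 3 and 4 gave 15 to 18 at p under 0.05 (10.2 to 18.4% of all genes). Without KO untreated replicate 1 the adjusted test called 3, among 458 genes. Under IgG alone, edgeR and DESeq2 called 0 (0.0% of all genes) and 3 were lower at p under 0.05 (4.12% of all genes lower, 6.26% in either direction): Col27a1 (53.3, 61.0 and 48.6 CPM in WT, 33.1, 29.99 and 40.6 CPM in KO, −0.65 ± 0.24), Col22a1 (−4.63 ± 1.72) and Col6a5 (−2.82 ± 1.26), each with an adjusted p of 0.626.

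**Figure D5:**
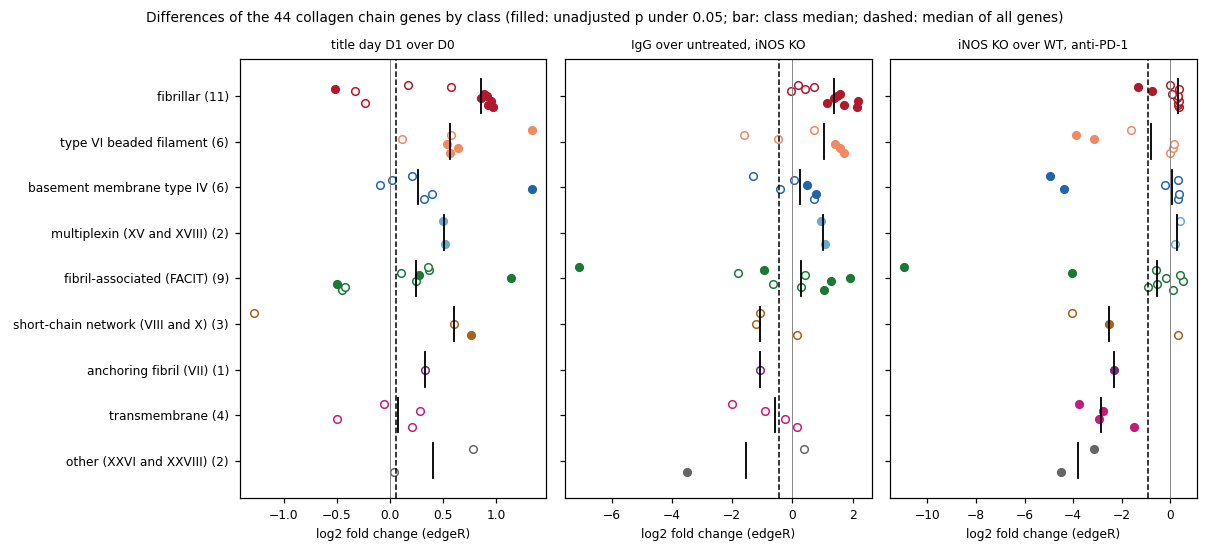
Log2 difference (edgeR) of each of the 44 collagen chain genes by class for day 1 over day 0, IgG over untreated in iNOS KO mice, and iNOS KO over WT under anti-PD-1, with filled points at an unadjusted p under 0.05, a bar at the class median and a dashed line at the median of all genes. The class medians of fibrillar and type VI chains lie right of the dashed line in the left and middle panels (0.86 and 1.38 for fibrillar chains). The median of transmembrane chains lies left of it in the right panel, where the higher WT sums of this class are those of receptor-rich libraries. Single chains can lie on the other side, as Col2a1 does in the left panel.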

How the data were processed

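RNA of 48 whole tumors was sequenced from strand-specific libraries. According to the methods and the submitters' processing notes, the authors removed adapters with cutadapt 1.8.1, aligned reads to mm10 with STAR 2.7.7a and estimated a read count per gene with RSEM 1.3.0 on GENCODE vM21. The name of the deposited count table points to a different counter than RSEM, and which one made the values could not be told from them. The deposited counts are whole numbers, not normalised, and no column went unmapped. Whether counting used strand is not given in the sources used here, and Col4a3, Col5a1, Col6a4 and Col9a3 overlap antisense genes over 2.50 to 6.07% of their exons. All 55450 gene identifiers matched vM21, and builds were not mixed.

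Each experiment was normalised and fitted on its own. Genes were kept by filterByExpr with a minimum count of 10 (26848 genes in the time course, 30837 in the genotype experiment), scaled by TMM and tested with edgeR 4.0.16 (R 4.3.3) by the quasi-likelihood F-test, with 1 coefficient for each group, 20 and 12 residual degrees of freedom and Benjamini-Hochberg adjustment over all genes tested. Of 22 comparisons, 12 were in the time course and 10 in the genotype experiment. SE is the absolute log2 difference over the square root of F. DESeq2 1.42.0 was the alternative test. Its counts of members are given without its share over all genes and are not read as results about the members. Correlations used log2(CPM + 0.5) and 100000 permutations. A group at 0 was set to 3 counts per library for a fold, 0.0688 to 0.197 CPM by depth, which covers counting error only. Replicates of a group differed well beyond sampling noise (chi-square per gene of 16.2 to 411), so none was counted as a repeat. Replicate numbers in the titles did not pair tumors: deviations of same-numbered tumors had a median correlation of −0.03 (65 pairs) and −0.02 (36 pairs).

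On simulated counts with 200 changed genes, day 1 against day 0 recovered 28 of 100 2-fold and 56 of 100 4-fold changes with 3 false calls among 24625 genes, and anti-PD-1 against IgG in KO recovered 13 and 43 of 100 with 4 false calls among 25485. The members, gene lists and tests were chosen with earlier results of these data known. Values are given in full for members that pass the adjusted test, for the 6 highest per length in each experiment and, where fewer than 3 pass, for up to 3 with the smallest p. List genes were to be named only where they passed, and otherwise are given by count and median. Members mentioned for a shared trimer, a position or a library were picked after their values were seen. Alternatives were DESeq2 size factors, no filter on counts, only the groups compared, receptor counts as a covariate or subtracted, a replicate block and each library left out. Leaving out the 3 libraries rich in skin and muscle markers, or the 3 rich in receptor counts, was chosen after seeing the data.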

Additional observations from a re-analysis of the deposited data

How the results depend on the processing

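Counts of members past the adjusted threshold were 0 in 21 comparisons and 1 in the test over the 6 genotype groups. By DESeq2 they were 3 (untreated day 0 and day 3 against 0 hours, day 1 against day 0 and the test over 10 groups), 2 (IgG against untreated in KO, untreated KO against WT) and 13 (KO against WT under anti-PD-1, the test over 6 groups). With no filter on counts they were 4 and 3 against 0 hours, 13 for day 1 and 1 for day 3 against day 0, 1 for IgG against untreated on day 1, 17 in KO and 10 in WT for IgG against untreated, 16, 2, 13 and 16 for KO against WT (untreated, IgG, anti-PD-1, averaged), 17 for anti-PD-1 against IgG in WT, 1 for the interaction, and 14 and 32 over the 10 and 6 groups. The cause was not tested. Where no count over all genes stands beside a DESeq2 or unfiltered count, that count is not set against a background. With only the groups compared in the fit they were 14 for IgG against untreated in KO and 1 for untreated KO against WT, and with the receptor covariate 1 and 4 over the 10 and 6 groups. Leaving out 1 library at a time gave 0 to 4 and 0 to 3 against 0 hours, 0 to 3 over the 10 groups, 0 to 7 for IgG against untreated in KO, 0 to 2 and 0 to 28 for KO against WT untreated and under anti-PD-1, 0 to 3 averaged, 0 to 20 for anti-PD-1 against IgG in WT and 1 to 29 over the 6 groups. Pairs of chains passing numbered 7 in each experiment without the 2 farthest tumors or without the 3 doubted libraries.

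Directions of named genes turned in few settings. Without the 3 skin- and muscle-rich libraries, Col17a1 and Col28a1 turned to 0.10 and 0.57 (day 0 against 0 hours), Col7a1 and Col23a1 to 0.30 and 0.44 (day 3 against 0 hours) and Col17a1 to 0.28 (anti-PD-1 against IgG, day 1). Without the 3 receptor-rich libraries, Col1a1 turned to −0.88 (KO against WT, anti-PD-1) and Col19a1 to 0.70 (interaction) and −1.48 (anti-PD-1 against IgG, WT). With the receptor covariate Col1a1 turned to −0.84 (KO against WT, anti-PD-1) and 0.12 (anti-PD-1 against IgG, averaged over days), and leaving out 1 library gave −0.17 to 2.21 and −0.37 to 0.0236 for these. For Col17a1 (anti-PD-1 against IgG, day 1) it gave −2.83 to 0.27. DESeq2 size factors moved the median of all genes from −0.91 to −1.02 (KO against WT, anti-PD-1), from 0.68 to 0.79 (anti-PD-1 against IgG, WT) and from −0.47 to −0.57 (interaction), where the member median went from 0.01 to −0.08.

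The replicate number as a block changed no count of adjusted calls by over 1.5 times. It moved Col1a1 to 0.0086 (anti-PD-1 against IgG, averaged over days) and the members at an unadjusted p under 0.05 from 9 to 5 and from 12 to 4 (day 0 and day 3 against 0 hours), from 15 to 7 (untreated KO against WT) and from 6 to 10 (interaction).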
